A study of Mus musculus with 9 samples.

Results

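The imprinted domains of Igf2r with its overlapping non-coding RNA Airn, and of Gnas with its antisense RNA Nespas, were followed in a map of high-salt recovered sequences (HRS) of E14Tg2a cells, mouse embryonic stem (ES) cells from the 129P2 strain, kept in medium with LIF. A domain was taken as a fixed window of the mm9 genome, chr17:12860000-13060000 for Igf2r and Airn and chr2:173980000-174190000 for Gnas and Nespas. A member was any StyI restriction fragment with its midpoint in a window, which gave 273 fragments for the Igf2r window and 314 for the Gnas window, 587 of 3053721 in all. Membership used position alone and no count, but the windows were chosen with earlier results of these data known. The 300 kb on each side of a window, 854 fragments around Igf2r and 868 around Gnas, served for comparison.

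In the HRS assay nuclei are extracted with high salt and their DNA is cut with StyI. DNA that stays with the insoluble nuclear material is called HRS, and DNA that is released is called Loop. Each was sequenced in 3 libraries. A further 3 libraries hold genomic DNA that was not fractionated (input). They are titled D0, D12 and D21 and are given below as input replicates 1, 2 and 3. The labels do not explain these titles, so the 3 inputs were taken as 1 group without knowing that they are like samples. All of them came from this 1 line, and no label ties the replicates to separate cultures, so p-values measure only the spread between these libraries, which may be technical. The HRS and Loop libraries share replicate numbers in their titles, which the main fits did not use. A count is a number of short tags from the ends of 1 fragment and is not split by allele, so maternal and paternal DNA were not told apart. DNA counts cannot check the cell type by its markers.

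Imprinted genes are expressed from 1 parental allele, and at both loci a non-coding RNA made on the paternal chromosome takes part. Igf2r encodes the cation-independent mannose 6-phosphate receptor, which binds insulin-like growth factor 2 and takes it to the lysosome for degradation. Airn starts inside Igf2r, runs against it from the paternal allele and silences Igf2r in cis in most tissues, whereas in undifferentiated ES cells Igf2r is expressed from both alleles. Gnas encodes the stimulatory G protein alpha subunit, which couples receptors to adenylyl cyclase. It shares exons with transcripts that start upstream of it on the maternal (Nesp) or the paternal chromosome (Gnasxl), and Nespas, listed in RefSeq as Gnasas1, is made from the paternal allele against Nesp. In the RefSeq gene order of GRCm38.p6, Gnasas1 and Gnas lie between Mir298 and Nelfcd. No mm9 annotation was used here, so the genes could not be placed within the windows, and positions below are given as mm9 coordinates only.

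The sequences before the starts of the genes that name the domains are shown, except for Nespas, for which none was at hand. They are the 250 bases upstream of each start from RefSeq on GRCm38.p6, whose coordinates differ from those of the counts. The windows were chr17:12769707-12769956 on the minus strand for Igf2r, chr17:12741061-12741310 on the plus strand for Airn, and chr2:174284070-174284319 and chr2:174329756-174330005, both on the plus strand, for the most upstream and the most downstream of the Gnas starts in the table. They are written 5′ to 3′ on the gene's own strand, with CG dinucleotides in capitals.
Igf2r: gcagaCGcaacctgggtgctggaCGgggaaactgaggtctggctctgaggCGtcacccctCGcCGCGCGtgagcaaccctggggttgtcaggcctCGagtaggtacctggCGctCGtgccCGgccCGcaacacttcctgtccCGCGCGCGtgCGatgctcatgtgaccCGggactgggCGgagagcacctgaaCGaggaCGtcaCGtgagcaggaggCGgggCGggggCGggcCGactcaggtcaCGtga
Airn: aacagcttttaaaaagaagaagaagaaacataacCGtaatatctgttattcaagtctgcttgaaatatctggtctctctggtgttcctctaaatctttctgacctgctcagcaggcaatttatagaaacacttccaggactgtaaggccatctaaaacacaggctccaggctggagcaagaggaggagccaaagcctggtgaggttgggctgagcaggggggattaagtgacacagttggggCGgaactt
Gnas, upstream start: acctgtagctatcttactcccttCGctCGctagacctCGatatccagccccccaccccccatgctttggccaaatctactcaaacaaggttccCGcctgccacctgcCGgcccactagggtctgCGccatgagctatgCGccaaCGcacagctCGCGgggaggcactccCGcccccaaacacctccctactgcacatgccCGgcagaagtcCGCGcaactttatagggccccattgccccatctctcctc
Gnas, downstream start: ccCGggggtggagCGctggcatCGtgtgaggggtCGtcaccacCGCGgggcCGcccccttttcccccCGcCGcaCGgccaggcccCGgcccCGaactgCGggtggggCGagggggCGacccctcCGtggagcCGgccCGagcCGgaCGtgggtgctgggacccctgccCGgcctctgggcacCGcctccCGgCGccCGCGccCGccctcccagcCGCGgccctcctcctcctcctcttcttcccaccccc
CG dinucleotides numbered 27 before Igf2r, 2 before Airn, 14 before the upstream Gnas start and 29 before the downstream one, against a median of 6 over 32851 such windows of the genome. None of the 4 windows held a StyI site. The letters searched were CCNNGG with A or T at each N, which read the same on both strands, and 29.2% of all windows held one. With no site inside a window, the assay counts such a start through tags at the ends of the fragment around it.

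The count tables summed to 39.1 to 52.5 M per HRS library, 58.7 to 62.9 M per Loop library and 55.2 to 62.2 M per input library. HRS replicate 3 was the smallest and stood apart in the Gnas window, so the main uncorrected results there are given with and without it. In each flank of both windows it was also the highest or the lowest HRS library. Ratios corrected for fragment length are given only with it included. Levels are given as CPM, counts per 1000000 counts of the library. Fragments of up to 200 bp took 28.9 to 32.0% of the counts in HRS, 46.8 to 55.6% in Loop and 25.6 to 27.0% in input, so comparisons with Loop are given also with a correction for fragment length. The correction sets each count against an expected count. This is the fragment's sum over all 9 libraries times the library's share of the counts of its length class. Ratios, standard errors and adjusted p-values are from edgeR's quasi-likelihood test with Benjamini-Hochberg adjustment over all tiles, bins or fragments of the genome, and a feature was called at an adjusted p under 0.05.

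The Gnas domain was higher in HRS than in Loop and input, by most in HRS replicate 3. It held 194, 194 and 252 CPM in the HRS libraries, 165, 165 and 169 CPM in the Loop libraries and 146, 147 and 149 CPM in the input libraries. All 3 HRS values lay above all Loop values, and all Loop values above all input values. The means were 213 ± 33.6 CPM in HRS, 166 ± 2.07 CPM in Loop and 148 ± 1.56 CPM in input (SD, n = 3 each). Over all 210 kb tiles of the genome, the log2 ratio of HRS over input at the Gnas tile was 0.71 ± 0.15 (SE; adjusted p = 0.00279), or 1.63-fold, where the median tile stood at 0.0016 and the upper quartile at 0.25. Of those tiles 26.3% were called higher in HRS than in input. For HRS over Loop the log2 ratio was 0.43 ± 0.15 (adjusted p = 0.0337), and 23.3% of tiles were called higher in that comparison. With replicate number as a block in the fit it was 0.41 ± 0.10 (adjusted p = 0.0028). With the length correction and no block it was 0.68 ± 0.13 (adjusted p = 0.00373). Without HRS replicate 3 the uncorrected log2 ratio of HRS over Loop was 0.23 (adjusted p = 0.00509) and that of HRS over input was 0.48. In fits without the block, leaving out any 1 of the Loop libraries left the ratio of HRS over Loop between 0.41 and 0.46. Its adjusted p was then above the threshold, between 0.0729 and 0.105.

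**Figure D1:**
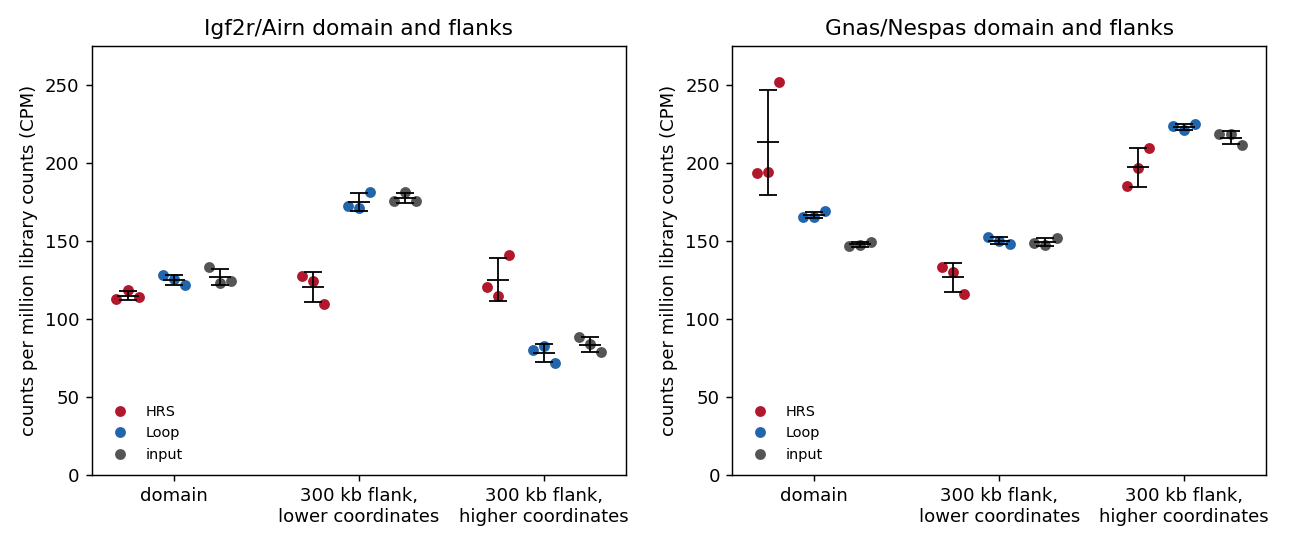
CPM (linear axis from 0) in the Igf2r/Airn window (left panel) and the Gnas/Nespas window (right panel) and in the 300 kb flanks on the side of lower and of higher coordinates; each point is 1 library, and bars give mean and SD of 3 libraries. In the Gnas window the HRS libraries (194 to 252 CPM) lie above Loop (165 to 169 CPM) and input (146 to 149 CPM), whereas in the Igf2r window HRS (113 to 118 CPM) lies below Loop (122 to 128 CPM) and input (123 to 133 CPM).

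The flanks of the Gnas window did not share this order. The flank at lower coordinates held 133, 130.0 and 116 CPM in HRS, 152, 149.9 and 148 CPM in Loop and 149, 147 and 152 CPM in input, with every HRS library below all others. The flank at higher coordinates held 185, 196 and 209.7 CPM in HRS, 224, 221 and 225 CPM in Loop and 218.5, 218.3 and 211 CPM in input, again with every HRS library lowest. On library totals, which CPM use, the median 210 kb tile stood at -0.16 in HRS over input and -0.07 in HRS over Loop (log2). A lower HRS level on this scale was thus not particular to the flanks, though bins called lower were more frequent in them than over the genome. In 10 kb bins, HRS was called higher than input in 0 of 29 tested bins of the flank at lower coordinates, and lower in 5. In the flank at higher coordinates it was called higher in 5 of 30 and lower in 7. Over the genome 15.2% of bins were called higher and 9.16% lower, so the 5 of 30 lay near that share, while both numbers called lower lay above theirs. HRS was called lower than Loop in 12 of 29 and 12 of 30 bins of these flanks, and higher in 5 of each. Over the genome 20.4% were called lower and 17.8% higher. With the length correction 5 and 8 were called lower and 1 and 7 higher, where 8.44% and 15.0% of all bins were called. The log2 ratio of the domain to both flanks together, which needs no scaling between libraries, was -0.72, -0.75 and -0.37 in HRS, -1.19, -1.16 and -1.14 in Loop and -1.33, -1.31 and -1.28 in input. The mean log2 ratio was 0.55 higher in HRS than in Loop and 0.69 higher in HRS than in input, and the groups did not overlap. Without HRS replicate 3 these differences were 0.43 and 0.57. The two-sided exact permutation p with all libraries was 0.1 in both comparisons, the smallest that 3 libraries against 3 allow, and 0.2 after adjustment over the 6 comparisons of this kind. Against flanks of 150 kb the difference of HRS over Loop was 0.23 and that of HRS over input was 0.47. Differences of this kind hold the lower HRS level of the flanks as well as the higher one of the window.

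Within the Gnas window the higher HRS counts were not spread evenly. In 10 kb bins, all 21 of which could be tested, HRS was called higher than input in 9 and lower in 0, where 15.2% and 9.16% of the bins of the genome were called higher and lower. At an unadjusted p under 0.05 edgeR called 11 higher and 0 lower, and DESeq2 called 8 higher and 0 lower after adjustment. The 9 called bins adjoin each other and form 1 stretch, chr2:174080001-174170000, which was singled out after its values were seen. HRS was called higher than Loop in 7 bins and lower in 2, with 17.8% and 20.4% of all bins as background, and lower in 0 without HRS replicate 1 or 2 or Loop replicate 2 or 3. Corrected for length, these numbers were 9 and 0, with 15.0% and 8.44% as background, and the 9 bins were those of the stretch; edgeR at an unadjusted p under 0.05 also gave 9 and 0. When replicate number was added as a block, without length correction, HRS was called higher than Loop in 9 bins and lower in 4. The median log2 ratio of HRS over input was 0.25 over the 21 bins and -0.03 over all bins of the genome.

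The 9 bins of the stretch, 90 kb together, held 125, 124 and 183 CPM in HRS, 85.7, 87.1 and 91.5 CPM in Loop and 74.4, 75.8 and 76.5 CPM in input. The other 12 bins, 120 kb together, held 68.2, 70.3 and 69.2 CPM in HRS, 79.3, 78.3 and 77.3 CPM in Loop and 72.1, 71.2 and 72.9 CPM in input. The stretch thus took 67.5% of the domain's HRS counts, 52.9% of its Loop counts and 51.2% of its input counts. In the stretch HRS replicate 3 was the highest library, while in the remaining bins it lay between the other HRS libraries. Without HRS replicate 3 all 9 bins were still called higher in HRS than in input, at log2 ratios of 0.44 to 1.22, and the count was 8 without any 1 of the input libraries. Against Loop, uncorrected, 7 of the 9 bins were called higher, and 6 without HRS replicate 3, when the lowest log2 ratio was -0.21.

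By the rule that took the extremes of HRS over Loop in each window, 3 bins of the stretch ranked highest. The bin at chr2:174150001-174160000 held 8.46, 9.11 and 10.9 CPM in HRS, 3.88, 3.37 and 4.43 CPM in Loop and 5.92, 6.40 and 5.96 CPM in input. Its HRS over Loop log2 ratio was 1.26 ± 0.16 (adjusted p = 5.13e-06), or 2.40-fold, and 1.13 with the length correction. The bin at chr2:174100001-174110000 held 14.6, 16.8 and 22.3 CPM in HRS, 7.06, 6.99 and 9.02 CPM in Loop and 7.37, 6.84 and 7.43 CPM in input. Its HRS over Loop log2 ratio was 1.20 ± 0.19, and the length correction raised it to 1.57 (adjusted p = 1.37e-05), the highest of the window. The bin at chr2:174160001-174170000 held 9.76, 8.77 and 12.2 CPM in HRS, 5.01, 3.61 and 5.16 CPM in Loop and 6.29, 6.72 and 6.90 CPM in input, a log2 ratio of HRS over Loop of 1.14 ± 0.17. In all 3 bins every HRS library lay above every Loop and input library.

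The largest counts of the window fell in the first bins of the stretch. The bin at chr2:174080001-174090000 held 22.2, 22.0 and 42.4 CPM in HRS, 22.5, 23.0 and 26.3 CPM in Loop and 16.3, 18.0 and 18.1 CPM in input. It was called higher in HRS than in input at a log2 ratio of 0.88 ± 0.24, while its uncorrected ratio of HRS over Loop of 0.27 did not pass (adjusted p = 0.409). Next to it, chr2:174090001-174100000 held 30.6, 29.7 and 43.9 CPM in HRS, 20.6, 20.7 and 21.3 CPM in Loop and 16.4, 15.1 and 16.8 CPM in input, with HRS above both others in every library. The bins with the lowest ratio of HRS over Loop lay outside the stretch. They were chr2:174030001-174040000 at -0.37 (adjusted p = 0.0696), chr2:173990001-174000000 at -0.36 (adjusted p = 0.047) and chr2:174070001-174080000 at -0.36 (adjusted p = 0.0394). After correction for length these 3 were -0.24, 0.07 and 0.20, none of them called.

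**Figure D2:**
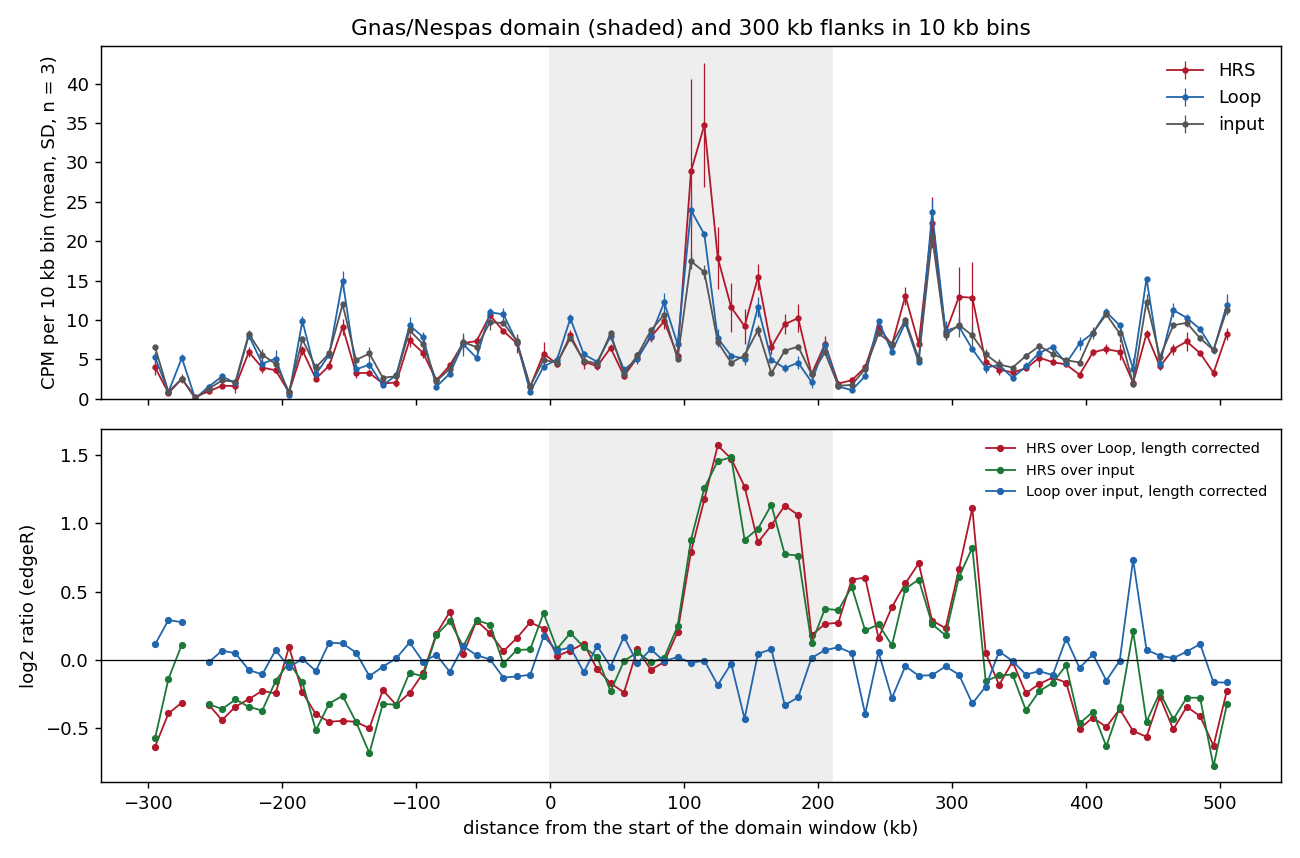
The Gnas/Nespas window (shaded) and its 300 kb flanks in 10 kb bins against the distance from the start of the window in kb; the upper panel gives mean CPM per bin with SD over 3 libraries for HRS, Loop and input, the lower panel the log2 ratios of the edgeR fits. The ratios of HRS over Loop, length corrected, and of HRS over input run above the other bins of the window from 100 to 190 kb, with highest values of 1.57 and 1.48, while Loop over input, length corrected, stays between -0.43 and 0.17 in the window.

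The bins are sums of single fragments, which show the same counts at finer scale and give no independent support. Of the 314 fragments of the Gnas window, 7 were counted in no library and 274 had counts enough to test HRS against input. Of these 58 were called higher in HRS (median length 196.5 bp) and 3 lower, with 4.57% and 1.74% of tested fragments of the genome as background. All 58 had their midpoints in the stretch, and they spanned 84.6 kb, chr2:174085440-174170060, from 105 to 190.1 kb into the window. The stretch held 144 fragments in all, 132 of them tested, with a median log2 ratio of HRS over input of 0.97, while the 142 tested fragments elsewhere in the window had a median of 0.03. Leaving out 1 input library at a time lowered the number called higher to between 26 and 31 and the number called lower to 0, and leaving out HRS replicate 3 gave 49 and 4.

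The fragments that held most HRS counts in the Gnas window lay in the stretch. The fragment chr2:174106836-174106985 (149 bp) had 111, 131 and 125 counts in HRS, 56, 69 and 102 in Loop and 50, 54 and 59 in input. Its log2 ratio of HRS over input was 1.58 ± 0.27 (adjusted p = 0.000599). The fragment chr2:174117697-174117789 (92 bp) had 139, 114 and 168 counts in HRS, 165, 163 and 163 in Loop and 72, 62 and 49 in input. Both fractions were above input there, HRS by a log2 ratio of 1.65 ± 0.29 (adjusted p = 0.000693), while HRS over Loop was -0.01 uncorrected and 1.08 with the length correction. The fragment chr2:174097454-174097498 (44 bp) had 107, 90 and 139 counts in HRS, 153, 227 and 144 in Loop and 41, 38 and 54 in input, a log2 ratio of HRS over input of 1.78 ± 0.30. This fragment and the one before it had the highest mean levels in Loop too, followed by chr2:174138691-174138763 (72 bp). The highest input levels were on chr2:174088837-174088925 (88 bp), chr2:174152350-174152519 (169 bp) and chr2:174038676-174038810 (134 bp). None of these last 4 was called between HRS and input.

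**Figure D3:**
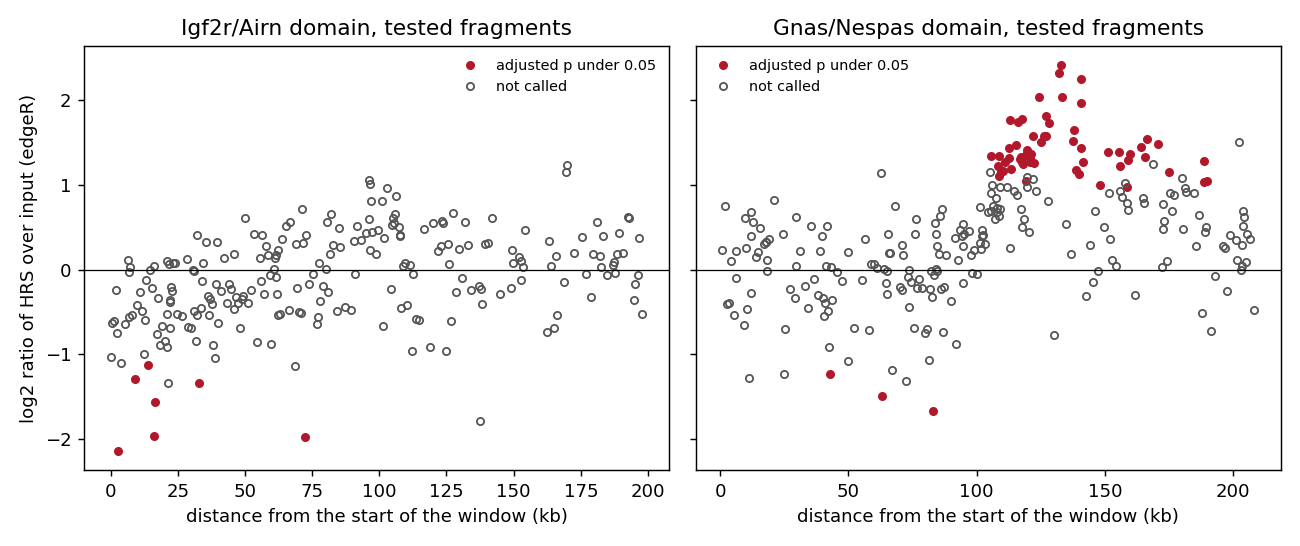
Log2 ratio of HRS over input of every tested StyI fragment against the distance of its midpoint from the start of the window in kb, for the Igf2r/Airn window (left) and the Gnas/Nespas window (right); filled points passed an adjusted p under 0.05. The 58 fragments called higher all lie between 105 and 190.1 kb into the Gnas window, and the 7 called lower in the Igf2r window all lie in its first 100 kb.

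Between HRS and Loop the length of a fragment went with its call. In the Gnas window 255 fragments were tested, of which 67 were called higher in HRS and 24 lower, with 8.02% and 14.8% of tested fragments of the genome as background. Without HRS replicate 3 the number called higher was 36, and without Loop replicate 1 or 2 it was 43. The median length was 733 bp for those called higher and 72.5 bp for those called lower. The largest ratios were on long fragments of the stretch with 0 to 13 counts in any Loop library. The fragment chr2:174120845-174121996 (1151 bp) had 29, 31 and 40 counts in HRS, 4, 2 and 4 in Loop and 27, 17 and 12 in input, a log2 ratio of HRS over Loop of 3.48 ± 0.55 (adjusted p = 2.83e-06). The fragment chr2:174112248-174113420 (1172 bp) had 15, 14 and 58 counts in HRS, 3, 5 and 2 in Loop and 8, 6 and 9 in input, with most of its HRS counts in replicate 3. It was followed by chr2:174100861-174101594 (733 bp) with a log2 ratio of 2.80 and chr2:174128220-174131239 (3019 bp), also 2.80. Their length-corrected log2 ratios were 2.99, 2.92, 2.42 and 2.18, all called. The 4 fragments with the lowest ratio had 47 to 75 bp, lay outside the stretch at log2 ratios of -1.96 to -1.64, and stood at -0.45 to -0.15, not called, after the correction. After it 62 fragments of the window were called higher and 1 lower, with 4.28% and 1.36% of tested fragments of the genome as background.

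**Figure D4:**
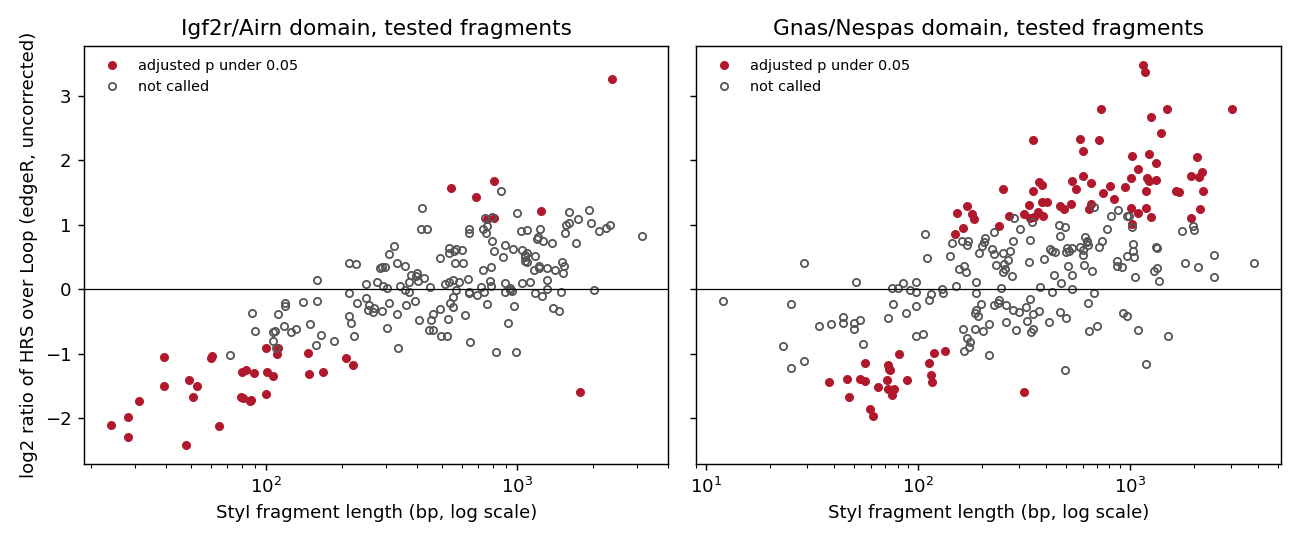
Log2 ratio of HRS over Loop, not corrected for length, of every tested StyI fragment against its length in bp (log axis), for the Igf2r/Airn window (left) and the Gnas/Nespas window (right); filled points passed an adjusted p under 0.05. In both windows the fragments called lower in HRS are mostly short (median 82 and 72.5 bp) and those called higher long (median 806 and 733 bp), and the Gnas window holds 67 called higher, against 7 in the Igf2r window.

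The Igf2r domain as a whole was lowest in HRS on CPM, but no ratio between the groups was called. It held 113, 118 and 114 CPM in HRS, 128, 125 and 122 CPM in Loop and 133, 123 and 124 CPM in input, with every HRS library below all Loop and input libraries. The log2 ratio over all 200 kb tiles of the genome was -0.06 ± 0.07 for HRS over Loop (adjusted p = 0.501), 0.02 ± 0.08 for HRS over input (adjusted p = 0.833) and 0.02 ± 0.05 for Loop over input (adjusted p = 0.774), none of them called. In the same fits 49.3%, 44.8% and 20.1% of tiles were called in either direction. These fits scale libraries by edgeR's trimmed mean of M values (TMM). On library totals instead, the Igf2r domain stood at -0.12 in HRS over Loop (adjusted p = 0.0984) and at -0.14 in HRS over input, where the median tile stood at -0.16. After length correction HRS over Loop was 0.05 (adjusted p = 0.471).

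The flanks of the Igf2r window differed between the fractions in opposite directions. The flank at lower coordinates held 128, 124 and 109.5 CPM in HRS, 173, 171 and 181 CPM in Loop and 176, 181 and 176 CPM in input, with HRS lowest in every library. The flank at higher coordinates held 120.2, 114 and 141 CPM in HRS, 79.7, 82.6 and 71.5 CPM in Loop and 88.1, 83.8 and 78.4 CPM in input, with HRS highest in every library. Of its 424 fragments 226 were counted in no library, against 40 of 430 in the flank at lower coordinates, so its values rest on part of it. Of 30 tested bins of the first, 0 were called higher in HRS than in input and 19 lower, and no bin there had a positive ratio. Of 26 tested bins of the second, 13 were called higher and 1 lower. Over all bins of the genome 15.2% were called higher and 9.16% lower. The log2 ratio of the domain to both flanks together was -1.14, -1.01 and -1.14 in HRS, -0.98, -1.01 and -1.06 in Loop and -0.99, -1.11 and -1.03 in input. The groups overlapped, with two-sided exact permutation p of 0.2 for HRS over Loop and 0.3 for HRS over input. The ratio to both flanks together sums flanks that differed in opposite directions, so it does not show how the domain stood to each of them. Against the nearest 150 kb on each side every HRS library was lower than every Loop and input library, with a mean log2 difference of -0.29 to Loop and -0.27 to input (two-sided exact permutation p = 0.1 each, the smallest possible).

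The first and second 100 kb of the Igf2r window are given apart, a split made after values were seen. The first 100 kb held 66.1, 75.1 and 65.9 CPM in HRS, 81.5, 76.7 and 77.6 CPM in Loop and 86.4, 78.9 and 81.5 CPM in input, with HRS lowest in every library. The second 100 kb held 46.5, 43.1 and 47.9 CPM in HRS, 46.5, 48.8 and 44.0 CPM in Loop and 46.6, 44.1 and 42.9 CPM in input, and there the 3 groups overlapped. Of the 20 bins, 2 were called higher and 2 lower in HRS than in input, with 15.2% and 9.16% of all bins as background. On library totals the split was 1 higher and 4 lower. HRS over Loop gave 4 higher and 4 lower, near the background of 17.8% and 20.4%. It gave 2 higher and 2 lower without HRS replicate 1 or Loop replicate 2, and 2 higher and 1 lower with the length correction, where 15.0% and 8.44% of all bins were called. The median log2 ratio of HRS over input was 0.05 over the 20 bins.

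**Figure D5:**
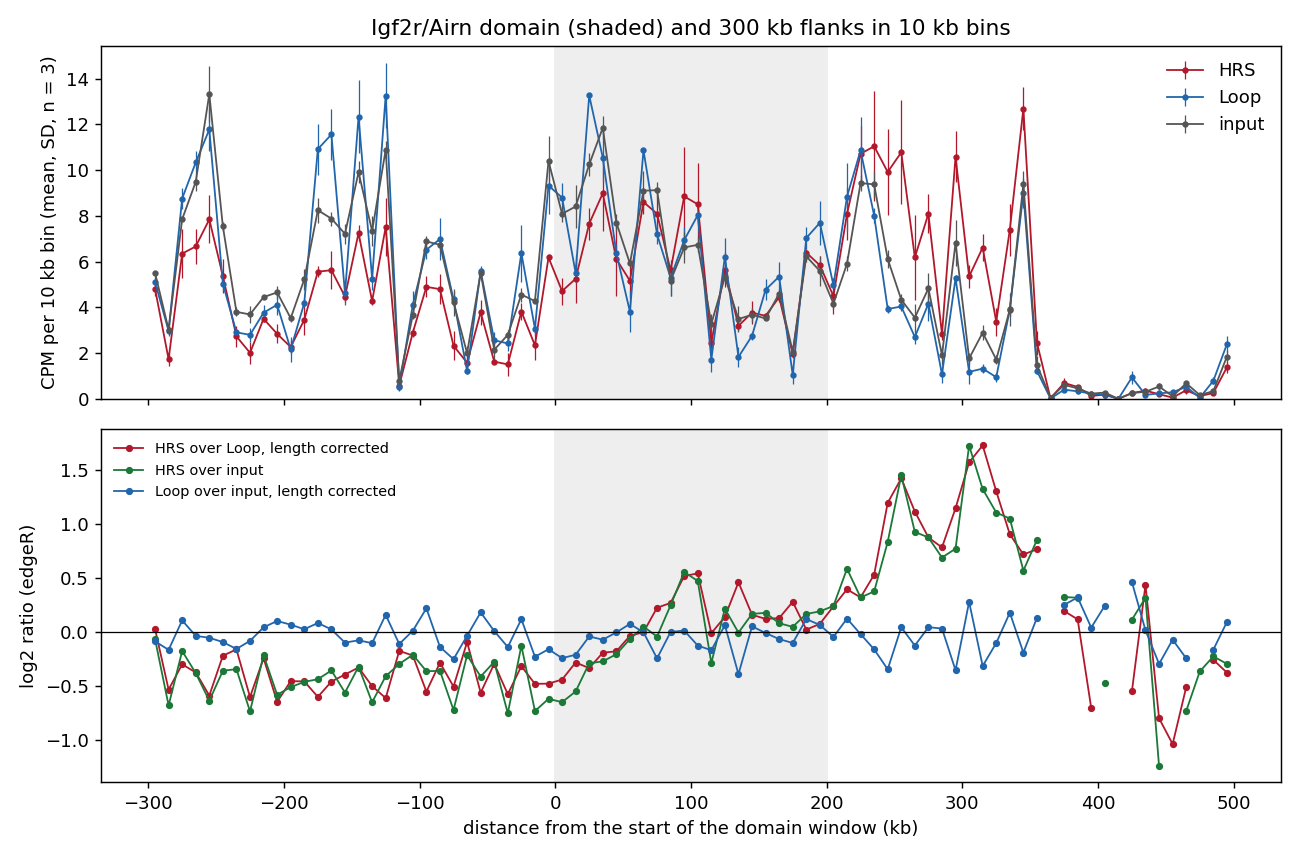
The Igf2r/Airn window (shaded) and its 300 kb flanks in 10 kb bins against the distance from the start of the window in kb; the upper panel gives mean CPM per bin with SD over 3 libraries for HRS, Loop and input, the lower panel the log2 ratios of the edgeR fits, with gaps where a bin had too few counts. HRS over input runs below 0 through the flank at lower coordinates and the first bins of the window (-0.65 in the first), passes 0 within the window and runs from -1.24 to 1.72 in the flank at higher coordinates.

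The first bin of the Igf2r window, chr17:12860001-12870000, held 4.04, 5.13 and 4.97 CPM in HRS, 8.41, 9.52 and 8.46 CPM in Loop and 7.72, 8.39 and 8.15 CPM in input. It was the lowest of the window in HRS over Loop, with a log2 ratio of -0.93 ± 0.15 (adjusted p = 5.81e-05), and was called lower also with the length correction (-0.44) and against input (-0.65). The next lowest in HRS over Loop were chr17:12880001-12890000 at -0.82 and chr17:13050001-13060000 at -0.42, both called, but at -0.33 and 0.08 with the length correction, not called. With the replicate block beside it chr17:12880001-12890000 was called at -0.34 (adjusted p = 0.0324, against 0.0528 without the block). The highest were chr17:13030001-13040000 at 0.88 ± 0.26 (adjusted p = 0.0117), chr17:12990001-13000000 at 0.78 ± 0.19 (adjusted p = 0.00281) and chr17:12970001-12980000 at 0.50 (adjusted p = 0.0674, or 0.0334 once the replicate block was added). These 3 held 1.95, 3.19 and 2.46 CPM on average in HRS and were at 0.28, 0.46 and -0.01 with the length correction, none called. With the replicate block beside the length correction, chr17:12990001-13000000 was called at 0.46 (adjusted p = 0.0375, against 0.0548 without the block).

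The bins of the Igf2r window called higher in HRS than in input were 2 neighbours near its middle, which were named after their values were seen. The bin chr17:12950001-12960000 held 7.67, 7.55 and 11.3 CPM in HRS, 7.30, 6.26 and 7.25 CPM in Loop and 7.29, 5.90 and 6.67 CPM in input, a log2 ratio of HRS over input of 0.55 (adjusted p = 0.0244). The bin chr17:12960001-12970000 held 7.88, 7.09 and 10.6 CPM in HRS, 8.25, 8.20 and 7.65 CPM in Loop and 7.09, 6.64 and 6.47 CPM in input, a log2 ratio of 0.47 (adjusted p = 0.0384). In both, HRS replicate 3 was the highest library. The number of bins called higher fell to 0 without input replicate 2 or 3 and to 1 without HRS replicate 3 or input replicate 1. These were also the 2 bins called higher in HRS over Loop with the length correction, at 0.52 and 0.54.

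Of the 273 fragments of the Igf2r window, 9 were counted in no library. HRS over input could be tested in 233, of which 0 were called higher and 7 lower, where 4.57% and 1.74% of tested fragments of the genome were called. All 7 lay in the first 100 kb; edgeR at an unadjusted p under 0.05 gave 12 higher and 24 lower. Without 1 input library 2 to 4 were called lower. HRS over Loop could be tested in 207, of which 7 were called higher (median length 806 bp) and 32 lower (median 82 bp), where 8.02% and 14.8% of tested fragments of the genome were called. The number called higher was 4 without HRS replicate 2, Loop replicate 1 or Loop replicate 2. With the length correction 2 were called higher and 3 lower, against 4.28% and 1.36% over the genome. The fragment chr17:13047456-13047545 (89 bp) had the highest level in all 3 groups, 61, 93 and 58 counts in HRS, 173, 210 and 198 in Loop and 81, 97 and 82 in input. HRS and input levels overlapped there, and HRS over Loop, at -1.30 on the log2 scale, was -0.18 after the correction. The next in HRS were chr17:13052460-13052768 (308 bp) and chr17:12931335-12931446 (111 bp), at a mean of 1.47 and 1.30 CPM. The next in Loop were chr17:12862415-12862480 (65 bp) and chr17:13052768-13052821 (53 bp), at 2.89 and 2.60 CPM. The next in input were chr17:12862415-12862480 and chr17:12937915-12938309 (394 bp), at 1.39 and 1.33 CPM.

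The longest fragment named in the Igf2r window, chr17:12961661-12964054 (2393 bp), had 11, 20 and 14 counts in HRS, 3, 2 and 0 in Loop and 9, 8 and 13 in input. Its HRS over Loop log2 ratio was 3.26 ± 0.78 (adjusted p = 0.0011), and 2.72 with the length correction (adjusted p = 0.0228). HRS was not called above input there (log2 ratio 0.96, adjusted p = 0.254). Of the others called higher in HRS than in Loop, chr17:12991556-12992362 (806 bp) kept its call with the correction at 1.23 (adjusted p = 0.0424), while chr17:12955767-12956311 (544 bp) and chr17:12983133-12983819 (686 bp) did not, at 1.19 and 0.98. The 4 called lowest had 24 to 65 bp and log2 ratios of -2.42 to -1.98, and after the correction -0.94 to -0.41, none called. They included chr17:12862415-12862480, with 35, 40 and 34 counts in HRS, 162, 214 and 158 in Loop and 67, 110 and 64 in input.

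Fewer bins differed between released and unfractionated DNA once length was corrected for. Loop was called higher than input in 10 bins of the Gnas window and lower in 2, and higher in 8 bins of the Igf2r window and lower in 5, with 21.5% and 18.0% of all bins as background. With the correction 0 bins were called higher and 1 lower in the Gnas window and 0 in either direction in the Igf2r window, where 0.348% of all bins were called; at an unadjusted p under 0.05 edgeR gave 0 higher and 3 lower in Gnas and 0 higher and 4 lower in Igf2r. Over the whole Gnas tile the log2 ratio of Loop over input was 0.22 ± 0.05 (adjusted p = 0.0173), with 9.38% of tiles called higher, and -0.04 (adjusted p = 0.778) with the correction. Without Loop replicate 2, input replicate 2 or input replicate 3 the uncorrected call was lost (adjusted p = 0.0738, 0.0934 and 0.0603). Loop held more of the short and fewer of the long fragments than input did, and the part of this in the result was not tested beyond the correction. Fragments of up to 200 bp in the Gnas window held 83.6, 82.9 and 119 CPM in HRS, 97.5, 108 and 114 CPM in Loop and 53.8, 55.3 and 55.9 CPM in input, while those over 1000 bp held 29.9, 31.4 and 37.2 CPM in HRS, 16.0, 14.0 and 8.02 CPM in Loop and 25.1, 25.5 and 28.0 CPM in input.

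HRS was above Loop and input in each length class of the Gnas window once length was taken into account. Each count is set against the same fragments' sum over all 9 libraries, split by each library's share of their length classes. These values therefore compare the groups with each other, and a high value in 1 group lowers the others. For fragments of up to 200 bp the counts were 1.37 ± 0.22 times this expectation in HRS, against 0.89 ± 0.01 times in Loop and 0.90 ± 0.02 times in input (SD, n = 3 each). For fragments of over 200 and up to 1000 bp these were 1.22 ± 0.14 times in HRS, 0.89 ± 0.03 times in Loop and 0.92 ± 0.01 times in input. For longer ones they were 1.26 ± 0.23 times in HRS, 0.83 ± 0.05 times in Loop and 0.92 ± 0.02 times in input. HRS replicate 3 was the highest in every class, at 1.61, 1.38 and 1.51 times. In the Igf2r window the same classes ranged from 0.899 to 1.01 times in the HRS libraries, from 0.958 to 1.08 times in Loop and from 1.00 to 1.11 times in input.

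The ratio of the domains to each other within a library needs no scaling either, but it was not corrected for fragment length. Fragments of up to 200 bp numbered 97 of 314 in the Gnas window and 59 of 273 in the Igf2r window. With the length correction Loop over input was -0.04 at the Gnas tile and -0.06 at the Igf2r tile (log2), neither called. Gnas counts were 1.72, 1.64 and 2.21 times Igf2r counts in HRS, 1.29, 1.32 and 1.39 times in Loop and 1.10, 1.20 and 1.20 times in input. HRS lay above Loop and Loop above input in every library. Whole chromosomes varied less, with chromosome 2 at 7.56 to 7.76% of counts in HRS, 7.62 to 7.77% in Loop and 7.67 to 7.73% in input, and chromosome 17 at 4.16 to 4.24% in HRS, 3.95 to 4.03% in Loop and 3.99 to 4.01% in input.

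Tiles elsewhere whose levels varied across the 9 libraries most like those of a domain are named by the Pearson correlation of log2(CPM + 1), as a description only, since all tiles share library depth and fragment lengths. For Gnas these were chr2:167260001-167470000 (r = 0.992), chr15:99010001-99220000 (r = 0.990) and chr17:27610001-27820000 (r = 0.988), and 735 of 12081 tiles had an r over 0.9. The first held 296 CPM on average in HRS, 225 CPM in Loop and 204 CPM in input. For Igf2r they were chr19:16460001-16660000 (r = 0.959), chr7:24660001-24860000 (r = 0.954) and chr17:57260001-57460000 (r = 0.948), with an r over 0.9 in 51 of 12682 tiles.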

How the data were processed

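The authors deposited raw tag counts per StyI fragment for each library. The tags come from fragment ends, per the labels' protocols, so counts do not grow with fragment length. CASAVA 1.8.2 and mm9 are named in the submitters' processing notes; how tags with several matches were handled is not given in the sources used here. For each of 21 chromosomes the final interval was dropped.

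Fragments were summed by midpoint into 200 kb and 210 kb tiles, each window being 1 tile, and into 10 kb bins. edgeR 4.0.16 (quasi-likelihood, TMM, filterByExpr with a minimum count of 10) was fitted to the 2 groups compared, with DESeq2 1.42.0 as an alternative. The length correction used 20 length classes as offsets. Domains were compared with flanks by exact permutation over libraries. The scripts were tested on simulated data. Deviations of same-numbered HRS and Loop libraries correlated at 0.154, 0.105 and 0.227 over 247829 bins. The numbers were therefore taken as a possible pairing, although HRS replicate 2 correlated more with Loop replicate 1 (0.118) than with its own number. These deviations were not corrected for fragment length. The main fits and their p-values did not use this pairing, and fits with replicate number as a block are given as an alternative. In each window the text names the 3 bins with the highest and lowest HRS over Loop, the 3 fragments with the highest mean in each group, up to 4 called fragments each way with the same sign in all pairs, and the 3 most alike tiles. The members and lists were chosen with earlier results of these data known.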

Additional observations from a re-analysis of the deposited data

How the results depend on the processing

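The domain results for Gnas kept their direction under every alternative run for HRS over Loop and HRS over input. Leaving out 1 library at a time moved Gnas HRS over Loop between 0.23 and 0.54 (log2). Gnas Loop over input was 0.19 to 0.23 over such fits, -0.042 with the length correction and 0.22, no longer called (adjusted p = 0.329), with all 9 libraries in 1 fit. The Igf2r ratios lay near 0 and changed sign. Igf2r HRS over Loop was 0.054 with the length correction, 0.053 with the replicate block and length correction together and 0.0062 with all 9 libraries in 1 fit. Igf2r HRS over input was -0.14 on library totals and -0.042 to 0.063 over fits that left out 1 library. Igf2r Loop over input was -0.062 with the length correction, -0.020 on library totals, and -0.0028 to 0.062 over fits that left out 1 library. Relative to its flanks, Igf2r Loop over input was -0.038 with the length correction and -0.0068 to 0.054 without 1 library, and Gnas Loop over input was -0.068 on fragments over 200 bp and -0.019 with the length correction. The cause of these changes was not tested.

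With the length correction the bins called were 2 higher and 1 lower (Igf2r, HRS over Loop), 1 higher (Igf2r, HRS over input), 0 higher and 0 lower (Igf2r, Loop over input), 0 lower (Gnas, HRS over Loop), and 0 higher and 1 lower (Gnas, Loop over input). DESeq2 called 2 higher and 2 lower in Igf2r and 1 lower in Gnas for HRS over Loop. An adjusted p of 0.01 left 1 higher and 2 lower (Igf2r) and 0 lower (Gnas) for HRS over Loop, 0 higher in Igf2r HRS over input, 5 higher in Igf2r Loop over input, and 6 higher and 1 lower in Gnas Loop over input. Library totals gave 1 higher and 4 lower in Igf2r HRS over input, 1 lower in Gnas HRS over input, 5 higher and 8 lower in Igf2r Loop over input and 6 higher in Gnas Loop over input; they moved the median bin to -0.155 in HRS over input and -0.15 in Loop over input. Bin edges shifted by 5 kb gave 1 higher in Igf2r HRS over input and 1 lower in Gnas HRS over Loop, and median-of-ratios factors 0 lower there. The replicate block raised the bins lower in Gnas HRS over Loop to 4, and with the length correction gave 0 there and 2 lower in Igf2r. The block's domain value for Gnas HRS over Loop was 0.41 (adjusted p = 0.0028) and the exact sign-flip p against flanks was 0.25, the smallest for 3 pairs. The block changed no domain call. It added the calls of chr17:12970001-12980000 (adjusted p = 0.0334) and chr17:12920001-12930000 in the Igf2r window, and in the Gnas window of chr2:174130001-174140000 and chr2:174170001-174180000 (higher) and chr2:174020001-174030000 and chr2:174060001-174070000 (lower). With the length correction it added chr17:12880001-12890000 and chr17:12990001-13000000.

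Without 1 library at a time, bins in HRS over Loop ranged from 2 to 4 higher and 2 to 5 lower in Igf2r and from 0 to 4 lower in Gnas. In HRS over input they ranged from 0 to 2 higher and 1 to 2 lower in Igf2r. In Loop over input they ranged from 5 to 9 higher in Igf2r and from 1 to 2 lower in Gnas. Fragments in HRS over Loop ranged from 4 to 7 higher in Igf2r and 36 to 61 higher in Gnas, and in HRS over input from 0 to 2 higher and 2 to 10 lower in Igf2r and 26 to 66 higher and 0 to 4 lower in Gnas. With the length correction the fragments called in HRS over Loop were 2 higher and 3 lower in Igf2r and 1 lower in Gnas, and 1 higher in Igf2r HRS over input. Among named bins the length correction turned chr17:12970001-12980000 to -0.011, chr17:13050001-13060000 to 0.075, chr2:173990001-174000000 to 0.069 and chr2:174070001-174080000 to 0.20. Among named fragments it turned those starting at 12931335 to 0.72 and 12937915 to -0.026 on chromosome 17, and at 174117697 to 1.08, 174097454 to 1.06, 174138691 to 0.33 and 174088837 to 0.72 on chromosome 2. Without 1 library the fragment at 12937915 ranged from -0.0054 to 0.42 and that at 174117697 from -0.42 to 0.16. Low counts limit single fragments: 40 of 273 in Igf2r and 40 of 314 in Gnas could not be tested in HRS over input.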
